A study of Mus musculus with 7 samples.

Results

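The epithelial and ductal identity genes are 32 named mouse genes of epithelial cell adhesion, of pancreatic and ductal transcription control and of the secreted and membrane products of ductal and classical pancreatic cancer cells, with the keratins left out. They were listed by name, and the list was chosen with earlier results of these data known. Of the 32, 31 had a row in the table of 22629 rows, and 30 of the 17489 genes with enough counts for a test were among them. Cldn3 was not analysed here, and Cldn7 had between 1 and 5 counts in every tumor and was not tested.

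RNA was sequenced from 7 tumors, 3 formed s/c in C57BL/6 mice with sgScramble control PDA cells (tumors 1, 4 and 5) and 4 formed with sgScramble PDA cells that expressed icOVA (tumors 15, 16, 18 and 2), all harvested 2 weeks after inoculation. All cells came from a cell line of a KPC mouse, in which mutant Trp53 R172H is switched on by a Cre recombinase under the promoter of Pdx1, itself among the 32 genes. All cells carried SpCas9 with the nontargeting sgScramble guide under puromycin selection, so the control tumors share the nuclease and the guide with the others. The icOVA cells carried a doxycycline-inducible vector for gfp and a cytoplasmic ovalbumin and were sorted and grown from single cells. The mice with icOVA tumors were fed doxycycline from the day of inoculation. For its icOVA experiments the study formed tumors from the inducible cells both with and without doxycycline. Its RNA-seq legend describes the controls as sgScramble control PDA cells, paired with the icOVA-expressing ones. The study's text does not state whether these control cells carried the vector or were cloned, or whether their mice were fed doxycycline. More cells were inoculated for the ovalbumin-inducible tumors than by default for s/c tumors. The number for these controls is not stated. The antigen, the vector, the cloning, the inoculum and the feed therefore cannot be told apart, and a group is not a set of independently derived lines. Host mice were bought at 6 weeks of age and housed for 2 weeks, and their sex is not given. The labels give each tumor as a sample of its own.

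Epithelial cells hold together through E-cadherin at adherens junctions and through occludin and claudins at tight junctions. In the pancreas, PDX1, FOXA2, GATA6, HNF4A and SOX9 bind the control regions of genes that set progenitor, ductal and gastrointestinal identity, and in pancreatic cancer high levels of GATA6, HNF4A and mucous products such as TFF1, AGR2 and CTSE mark the tumors called classical. ESRP1 and ESRP2 keep the epithelial pattern of splicing, and GRHL2, ELF3 and EHF keep epithelial genes active.

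Total counts per tumor ran from 30904855 to 37510591. Counts of OVA, which check the labels, were 85 to 151 in sgScramble tumors and 3413 to 10750 in icOVA tumors. The epithelial keratins Krt8, Krt18 and Krt19 were abundant in all tumors, from 364 CPM (a count divided by the TMM-scaled library size) for Krt19 in tumor 18 to 1670 CPM for Krt8 in tumor 16, so the label of an epithelial tumor was met. Their log2 fold changes in icOVA against sgScramble tumors were 0.10 (SE 0.15), -0.11 (SE 0.14) and 0.06 (SE 0.24), with adjusted p values of 0.686, 0.653 and 0.896 (edgeR quasi-likelihood test with Benjamini-Hochberg adjustment over all genes tested, used throughout). Markers of cells other than cancer cells differed between tumors. The summed level of 10 fibroblast markers was 7826 to 17468 CPM in sgScramble tumors and 6398 to 39701 CPM in icOVA tumors, with tumor 18 highest and tumor 15 next, and that of 12 leukocyte markers was 642 to 886 CPM and 1160 to 1495 CPM. Of those tested, 0 of 10 fibroblast and 6 of 11 leukocyte markers were higher and 0 of either lower, and 2 of 10 macrophage markers, Lyz2 and Cd68, were higher and 0 lower.

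The levels of the 31 genes spanned more than 3 orders of magnitude per length. On the RPKM scale (CPM per kilobase of exon), the levels in sgScramble tumors were highest for Tspan8, a tetraspanin of gut and tumor epithelium, at 247 ± 18.1 RPKM (SD, n = 3), and next for Cdh1 at 226 ± 22.5 RPKM (SD, n = 3) and Muc1 at 161 ± 48.4 RPKM (SD, n = 3). The ranges of these neighbours in the order overlapped, and the range of Muc1 lay above that of Elf3, at 47.3 ± 11.6 RPKM (SD, n = 3). At the other end stood Cftr at 0.315 ± 0.144, Cldn4 at 0.271 ± 0.153, Grhl2 at 0.243 ± 0.0613, Esrp1 at 0.219 ± 0.0526 and Cldn7 at 0.0566 ± 0.0227 RPKM (SD, n = 3). Of the 30 pairs of neighbours in this order, 26 had overlapping ranges in sgScramble tumors, so the order is one of broad levels and not of single ranks. The tumors therefore had high Cdh1 and Muc1 RNA beside very little RNA of Cldn4, Cldn7, Esrp1 and Grhl2. Epcam, a defining surface marker of epithelium, stood at 4.94 ± 2.60 RPKM (SD, n = 3), which was low beside Cdh1.

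**Figure D1:**
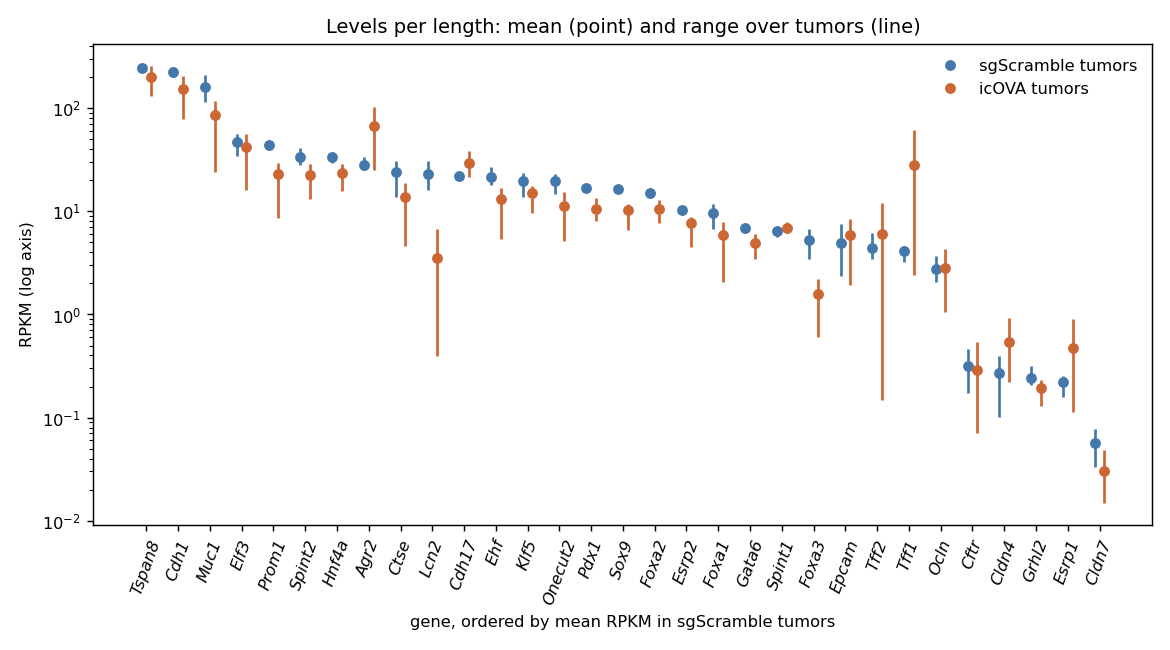
Mean RPKM (points, log axis) and the range over tumors (lines) of the 31 genes in sgScramble (n = 3) and icOVA (n = 4) tumors, ordered by the sgScramble mean. Tspan8, Cdh1 and Muc1 lead in both groups, Cldn7 is last, and the widest ranges among icOVA tumors are those of Lcn2, Tff1 and Tff2.

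With edgeR, 0 of the 30 tested genes passed an adjusted p of 0.05 in the direction of higher and 0 in that of lower levels in icOVA tumors, where 3.36% of all tested genes were higher and 2.54% were lower. Pdx1 (adjusted p = 0.0505) and Foxa3 (adjusted p = 0.0538) were nearest to the threshold. At an unadjusted p below 0.05, 10 of the 30 genes were lower (33.3%, against 13.8% of all tested genes) and 2 were higher (6.67%, against 13.4%). The same number, 10 genes, had every icOVA tumor below every sgScramble tumor, against 13.3% of all tested genes, and 0 had every icOVA tumor above, against 11.3%. These 10 were Sox9, Hnf4a, Foxa2, Foxa3, Gata6, Pdx1, Ehf, Esrp2, Prom1 and Lcn2, of which 7 are transcription factors. The median log2 fold change was -0.46 over the 30 genes and -0.0048 over all tested genes. Other tools placed some of the genes past the threshold. DESeq2, which called 16.2% of all tested genes in either direction, called Pdx1, Foxa3, Sox9 and Foxa2 lower and Agr2 higher. Limma-voom, which called 5.38%, called Pdx1, Foxa3 and Lcn2 lower.

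**Figure D2:**
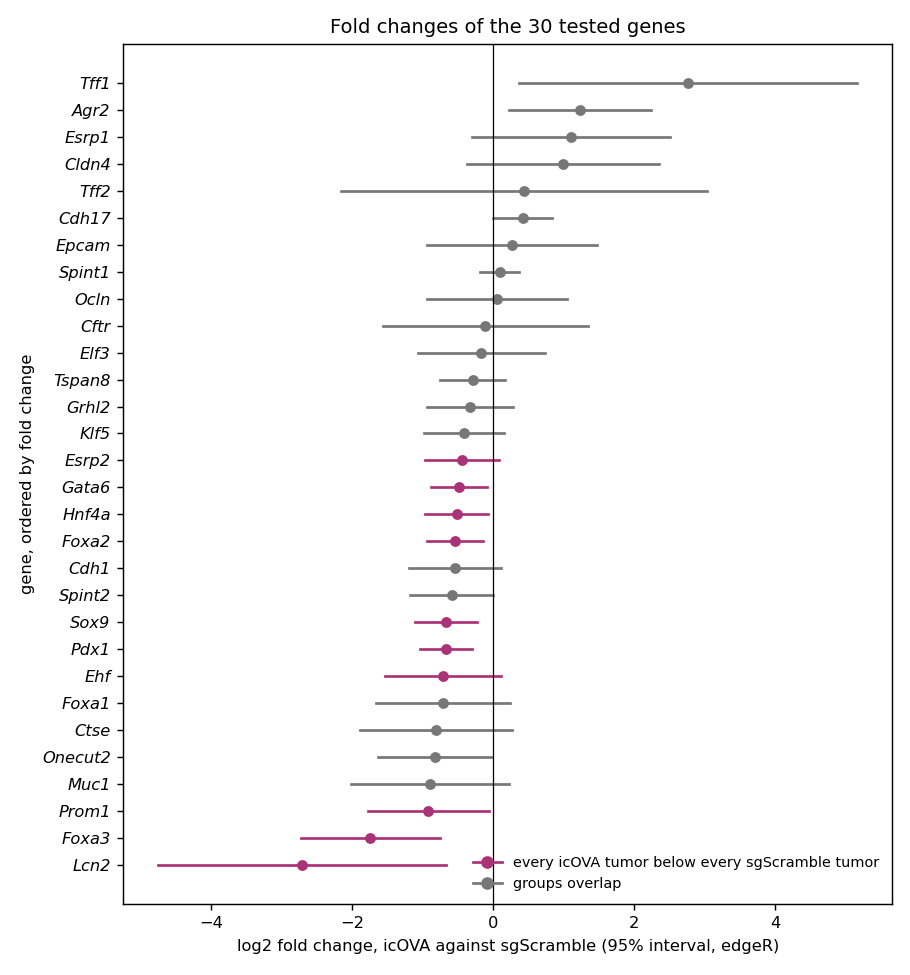
Log2 fold changes in icOVA against sgScramble tumors from edgeR (points) with 95% intervals (lines) for the 30 tested genes. The 10 genes with no overlap between the groups are in purple, all with a fold change below 0, from -2.71 for Lcn2 to -0.44 for Esrp2.

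All 12 transcription factors had a log2 fold change below 0, from -1.74 for Foxa3 to -0.17 for Elf3, and 7 of the 12 had every icOVA tumor below every sgScramble tumor. Of all tested genes, 50.6% had a fold change below 0 and 13.3% had no overlap in this direction. Bulk RNA cannot tell fewer cells of a type from less RNA per cell, and this holds for each level given here.

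Pdx1, the homeobox factor of pancreatic progenitors and beta cells, lies on chromosome 5 of GRCm38 from 147269959 to 147275848. It had 37.2, 34.1 and 38.2 CPM in sgScramble tumors 1, 4 and 5 and 22.3, 29.5, 17.6 and 22.4 CPM in icOVA tumors 15, 16, 18 and 2. Every icOVA tumor was below every sgScramble tumor, with tumor 16 nearest and tumor 18 lowest. The icOVA mean was 0.628 times the sgScramble mean, with a log2 fold change of -0.67 (SE 0.16, 95% interval -1.04 to -0.30, adjusted p = 0.0505). It passed the threshold when libraries were scaled by the upper quartile (adjusted p = 0.0443) or by total counts (adjusted p = 0.0413) and when only genes with at least 10 counts in every tumor were tested (adjusted p = 0.0478), where 6.07%, 6.35% and 7.03% of all tested genes did.

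Foxa3, a forkhead factor of endoderm, liver and gut, lies on chromosome 7 from 19013284 to 19023538. It had 11.1, 7.08 and 13.8 CPM in sgScramble tumors 1, 4 and 5 and 2.73, 4.50, 1.24 and 4.29 CPM in icOVA tumors 15, 16, 18 and 2. The groups did not overlap, and the lowest sgScramble tumor was tumor 4. Its log2 fold change of -1.74 (SE 0.43, 95% interval -2.73 to -0.75, adjusted p = 0.0538) was the lowest of the transcription factors. Of the forkhead genes, Foxa2 had 39.4, 31.96 and 36.6 CPM against 23.5, 30.8, 18.2 and 26.9 CPM, also without overlap, and a log2 fold change of -0.54 (SE 0.17 and adjusted p = 0.1001). In Foxa2 only a narrow gap parted sgScramble tumor 4 from icOVA tumor 16. Foxa1, the paralog most studied in breast and prostate, overlapped between the groups, with 22.7 to 39.2 CPM in sgScramble and 6.87 to 26.2 CPM in icOVA tumors (log2 fold change -0.71, SE 0.41 and adjusted p = 0.300).

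Sox9, the HMG-box factor of ductal cells, had 68.3, 63.0 and 71.8 CPM in sgScramble tumors 1, 4 and 5 and 45.2, 48.9, 27.4 and 49.1 CPM in icOVA tumors 15, 16, 18 and 2. The groups were apart, tumors 15, 16 and 2 lay close together and tumor 18 lay below them. Its log2 fold change was -0.67 (SE 0.19, 95% interval -1.11 to -0.22, adjusted p = 0.0786). Gata6, the zinc finger factor whose level tracks the classical state, had 46.0, 41.5 and 46.9 CPM against 30.7, 39.0, 22.6 and 35.7 CPM (log2 fold change -0.49, SE 0.17 and adjusted p = 0.123). Hnf4a, the nuclear receptor of liver, gut and classical pancreatic cancer, had 173, 143 and 173 CPM against 113, 139, 75.9 and 129 CPM (log2 fold change -0.51, SE 0.19 and adjusted p = 0.140). In Gata6 and Hnf4a the groups did not overlap, with sgScramble tumor 4 and icOVA tumor 16 the nearest to each other.

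Ehf, an ETS factor of epithelia, had 109.5, 101 and 149 CPM in sgScramble tumors 1, 4 and 5 and 82.5, 87.5, 29.9 and 94.4 CPM in icOVA tumors 15, 16, 18 and 2, with no overlap (log2 fold change -0.71, SE 0.36 and adjusted p = 0.243). Onecut2, a cut-homeobox factor of liver and pancreas development, had 238 to 377 CPM and 83.1 to 252 CPM in the groups, which overlapped through tumors 4 and 16 (log2 fold change -0.82, SE 0.35 and adjusted p = 0.176). Elf3, Klf5 and Grhl2, which act broadly in simple epithelia, overlapped and had log2 fold changes of -0.17 (SE 0.39), -0.41 (SE 0.25) and -0.33 (SE 0.26), with adjusted p values of 0.807, 0.312 and 0.452. The 95% interval of Elf3, from -1.07 to 0.73, covers changes in either direction.

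**Figure D3:**
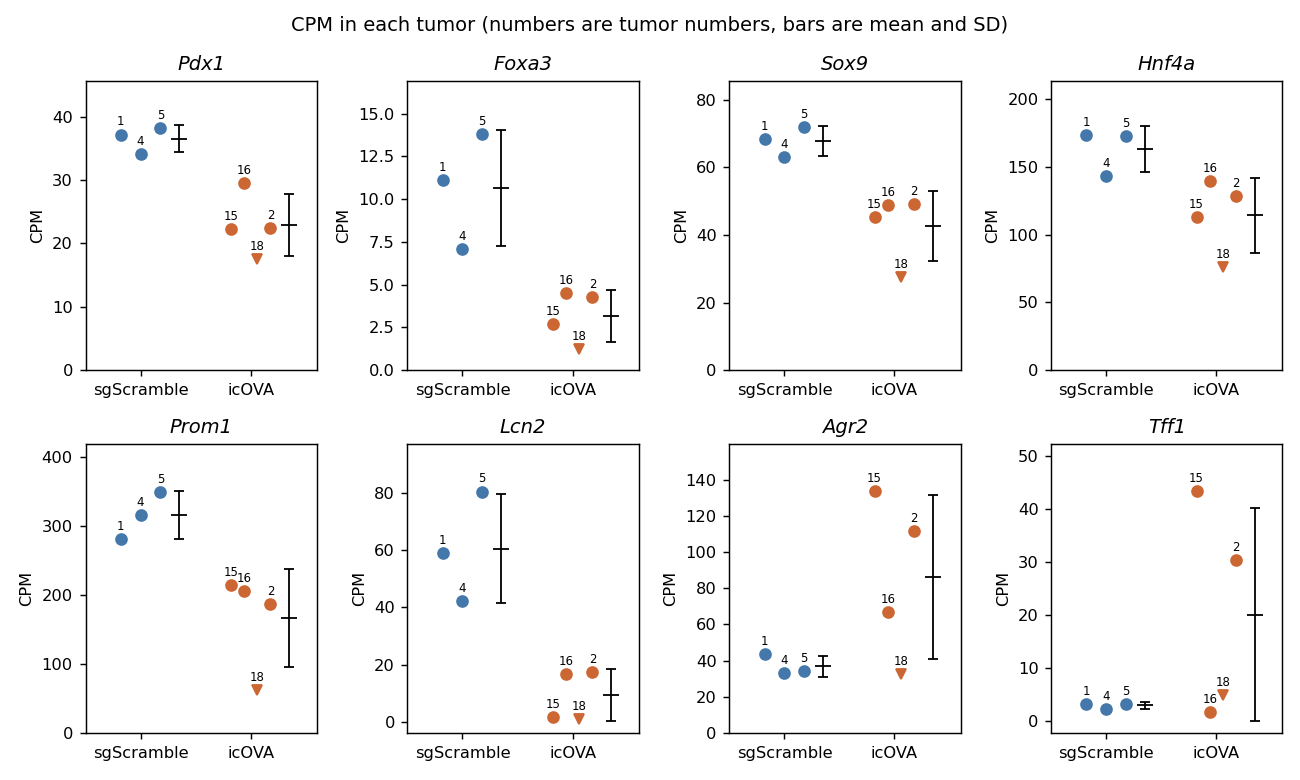
CPM of 8 genes in each tumor (points with the tumor number, sgScramble n = 3, icOVA n = 4), with the mean and SD beside each group. Pdx1, Foxa3, Sox9, Hnf4a, Prom1 and Lcn2 lie lower in all 4 icOVA tumors than in any sgScramble tumor, and Agr2 and Tff1 are highest in icOVA tumors 15 and 2.

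Promoter windows of 300 bases, from 250 before to 50 after the start of a transcript, were held for 19 of the 32 genes in the RefSeq table of GRCm38.p6, 25 windows in all. Windows are shown for Pdx1, Foxa3 and Hnf4a, which have no overlap between the groups and hold an E-box, and for Agr2, whose fold change was above 0. Of the other genes with no overlap, Foxa2, Lcn2 and Prom1 also had windows. They are Pdx1 (chr5:147269847-147270146, plus strand), Foxa3 (chr7:19023490-19023789, minus strand), the second of the Hnf4a windows (chr2:163546905-163547204, plus strand) and Agr2 (chr12:35992675-35992974, plus strand). Capitals mark the E-box CAGGTG, or CACCTG on the other strand, letters bound by the ZEB and SNAI repressors of epithelial genes.
Pdx1: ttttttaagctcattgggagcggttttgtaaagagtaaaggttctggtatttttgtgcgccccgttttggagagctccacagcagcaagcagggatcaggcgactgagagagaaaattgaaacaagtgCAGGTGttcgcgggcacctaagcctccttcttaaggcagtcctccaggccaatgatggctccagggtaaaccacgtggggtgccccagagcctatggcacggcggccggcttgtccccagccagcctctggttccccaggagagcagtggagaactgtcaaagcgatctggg
Foxa3: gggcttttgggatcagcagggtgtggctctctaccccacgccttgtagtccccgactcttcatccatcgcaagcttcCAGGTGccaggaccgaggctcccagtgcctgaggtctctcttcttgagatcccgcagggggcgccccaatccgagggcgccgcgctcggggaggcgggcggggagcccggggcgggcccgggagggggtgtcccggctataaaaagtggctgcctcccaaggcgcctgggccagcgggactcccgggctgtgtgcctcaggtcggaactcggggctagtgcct
Hnf4a: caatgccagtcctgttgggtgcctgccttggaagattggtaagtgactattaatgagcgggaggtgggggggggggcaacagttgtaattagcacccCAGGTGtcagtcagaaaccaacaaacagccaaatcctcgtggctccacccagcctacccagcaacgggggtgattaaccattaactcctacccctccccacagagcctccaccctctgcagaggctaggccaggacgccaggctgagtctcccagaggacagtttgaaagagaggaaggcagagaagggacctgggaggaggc
Agr2: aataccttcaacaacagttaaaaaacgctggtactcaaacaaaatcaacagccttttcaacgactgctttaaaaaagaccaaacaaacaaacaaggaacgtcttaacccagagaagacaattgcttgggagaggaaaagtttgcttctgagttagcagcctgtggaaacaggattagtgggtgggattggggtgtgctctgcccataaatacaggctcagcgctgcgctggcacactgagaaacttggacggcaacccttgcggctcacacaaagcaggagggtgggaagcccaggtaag
The E-box starts at base 129 of the Pdx1 window, base 78 of the Foxa3 window and base 98 of this Hnf4a window, and is not among the letters of the Agr2 window or of the other Hnf4a window. Nor is it in any of the 3 windows of Foxa2 or in that of Lcn2, so the E-box is not shared by all genes with no overlap, and Prom1 held it in 1 of 2 windows. It was found in 14 of the 25 windows, of 13 genes (Cldn3, Cldn4, Cldn7, Elf3, Epcam, Foxa1, Foxa3, Hnf4a, Muc1, Ocln, Pdx1, Prom1 and Spint2), and in 20.2% of the 32851 windows of all genes. These 13 include genes with fold changes above 0, such as Cldn4, and below 0, such as Prom1. The forkhead letters TGTTTAC, searched on both strands, were in the windows of Foxa1 and Tspan8 and in 3.65% of all windows. The grainyhead letters AACCGGTT and the nuclear receptor letters CAAAGTCCA, searched likewise, were in 0 of the 25 windows and in 0.146% and 0.475% of all windows. A match describes letters and is not evidence of binding. Which start site of a gene with several windows, such as Hnf4a, was used in these tumors was not tested.

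Of the 5 adhesion and tight junction genes tested, Cdh1 had a log2 fold change below 0 and Epcam, Cdh17, Cldn4 and Ocln had one above 0, that of Ocln turning below 0 with limma-voom and with the keratins level. Cdh1, which encodes E-cadherin and lies on chromosome 8 from 106603351 to 106670246, had 1099, 916 and 1089 CPM in sgScramble tumors 1, 4 and 5 and 753, 949, 364 and 774 CPM in icOVA tumors 15, 16, 18 and 2. The groups overlapped through tumors 4 and 16, and tumor 18 was lowest. Its log2 fold change was -0.54 (SE 0.28 and adjusted p = 0.254). Epcam, the epithelial cell adhesion molecule, had 10.9, 5.13 and 16.5 CPM against 18.5, 14.0, 4.29 and 15.2 CPM, with tumors 4 and 18 low in their groups (log2 fold change 0.26, SE 0.52, 95% interval -0.94 to 1.47, adjusted p = 0.776). Cdh17, the liver-intestine cadherin, had 90.4 to 107 CPM in sgScramble tumors and 139, 171.6, 95.6 and 124 CPM in icOVA tumors 15, 16, 18 and 2, so that only tumor 18 lay within the sgScramble range (log2 fold change 0.42, SE 0.18 and adjusted p = 0.185). Ocln, which encodes the tight junction protein occludin, had a log2 fold change of 0.05 (SE 0.43 and adjusted p = 0.951). Cldn4, a barrier claudin, had 0.182 to 0.720 CPM and 0.403 to 1.68 CPM (log2 fold change 0.99, SE 0.59 and adjusted p = 0.313).

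The splicing regulators Esrp1 and Esrp2 stood on opposite sides of 0. Esrp2 had 47.6, 40.2 and 48.1 CPM in sgScramble tumors 1, 4 and 5 and 38.4, 37.4, 19.5 and 38.2 CPM in icOVA tumors 15, 16, 18 and 2, with a narrow gap between the groups (log2 fold change -0.44, SE 0.23 and adjusted p = 0.251). Exons of Esrp2 overlap those of Nfatc3 on the other strand, which had up to 3804 counts, and since it is not stated whether counting used the strand, its level is uncertain. Esrp1 had 1.003 to 1.61 CPM and 0.719 to 5.73 CPM, with tumor 15 highest and tumor 18 lowest (log2 fold change 1.10, SE 0.61 and adjusted p = 0.279). The Kunitz inhibitors of membrane serine proteases also differed from each other. Spint1 had the smallest SE of the 30 genes, with 15.7 to 19.2 CPM and 17.2 to 22.0 CPM (log2 fold change 0.10, SE 0.12, 95% interval -0.18 to 0.37, adjusted p = 0.635). Spint2 had 128 to 187 CPM and 60.1 to 131 CPM (log2 fold change -0.59, SE 0.25 and adjusted p = 0.182).

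Among apical membrane proteins, Prom1, which encodes the cholesterol-binding protein prominin-1 (CD133), had 281, 316 and 349 CPM in sgScramble tumors 1, 4 and 5 and 213, 206, 61.5 and 186 CPM in icOVA tumors 15, 16, 18 and 2. The groups were well apart, and tumor 18 was the lowest by far. Its log2 fold change was -0.92 (SE 0.37, 95% interval -1.78 to -0.06, adjusted p = 0.161), and without tumor 18 it was smaller in size, -0.64, and passed the threshold (adjusted p = 0.0243). Muc1, the transmembrane mucin, had 271 to 497 CPM and 56.0 to 278 CPM (log2 fold change -0.90, SE 0.48 and adjusted p = 0.269). Tspan8 had 385 to 440.2 CPM and 225 to 435 CPM (log2 fold change -0.29, SE 0.20 and adjusted p = 0.374). Cftr, the apical chloride and bicarbonate channel of ducts, was low in all tumors, with 0.544 to 4.21 CPM, and its log2 fold change of -0.11 (SE 0.63 and adjusted p = 0.929) was uncertain in direction.

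The secreted products had the widest spread. Lcn2, the siderophore-binding lipocalin induced in inflamed and transformed ducts, lies on chromosome 2 from 32384633 to 32388252. It had 59.0, 42.2 and 80.5 CPM in sgScramble tumors 1, 4 and 5 and 1.76, 16.8, 1.04 and 17.6 CPM in icOVA tumors 15, 16, 18 and 2. The icOVA tumors fell into a pair near 17 CPM and a pair below 2 CPM, all under the sgScramble range. The icOVA mean was 0.154 times the sgScramble mean and the log2 fold change was -2.71 (SE 0.88, 95% interval -4.75 to -0.66, adjusted p = 0.103). Neutrophils also make lipocalin-2. The summed level of 14 neutrophil markers was 109 to 219 CPM in sgScramble tumors and 148 to 216 CPM in icOVA tumors. Of the 9 tested, 0 passed in either direction, and the most abundant, Mmp9, Csf3r, S100a9 and Cxcr2, overlapped between the groups. Among the icOVA tumors the summed neutrophil level was 165, 212, 148 and 216 CPM in tumors 15, 16, 18 and 2, higher in tumors 16 and 2, as Lcn2 was. Among the sgScramble tumors it was 109, 219 and 110 CPM in tumors 1, 4 and 5. It was highest in tumor 4, where Lcn2 was the lowest of that group. The part of neutrophil RNA in the level of Lcn2 was not tested.

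Agr2 and Tff1 were the only genes of the 30 with an unadjusted p below 0.05 and a fold change above 0. Agr2, a protein disulfide isomerase needed for mucin folding, had 43.4, 32.9 and 34.0 CPM in sgScramble tumors 1, 4 and 5 and 134, 67.0, 32.7 and 112 CPM in icOVA tumors 15, 16, 18 and 2. Tumor 18 lay just under the sgScramble range and the other icOVA tumors above it (log2 fold change 1.23, SE 0.43, 95% interval 0.23 to 2.23, adjusted p = 0.121). Tff1, the trefoil peptide of gastric pit cells, had 3.28, 2.25 and 3.26 CPM against 43.2, 1.69, 4.83 and 30.4 CPM. Tumors 15 and 2 were far above the sgScramble tumors and tumor 16 was the lowest of all (log2 fold change 2.77, SE 1.03, 95% interval 0.37 to 5.17, adjusted p = 0.138). Tff2, the trefoil peptide of mucous neck cells, lies next to Tff1 on chromosome 17 and had 2.22, 2.01 and 3.58 CPM against 7.02, 0.430, 0.0863 and 6.53 CPM, with the same tumors 15 and 2 high and tumors 16 and 18 below the sgScramble range (log2 fold change 0.44, SE 1.12 and adjusted p = 0.83). Ctse, an aspartic protease of gastric mucous cells, had a fold change below 0, with 98.5, 44.1 and 88.7 CPM against 60.3, 42.1, 14.7 and 58.2 CPM (log2 fold change -0.81, SE 0.46 and adjusted p = 0.296). Among the icOVA tumors, 15 and 2 were the highest for Ctse too.

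**Figure D4:**
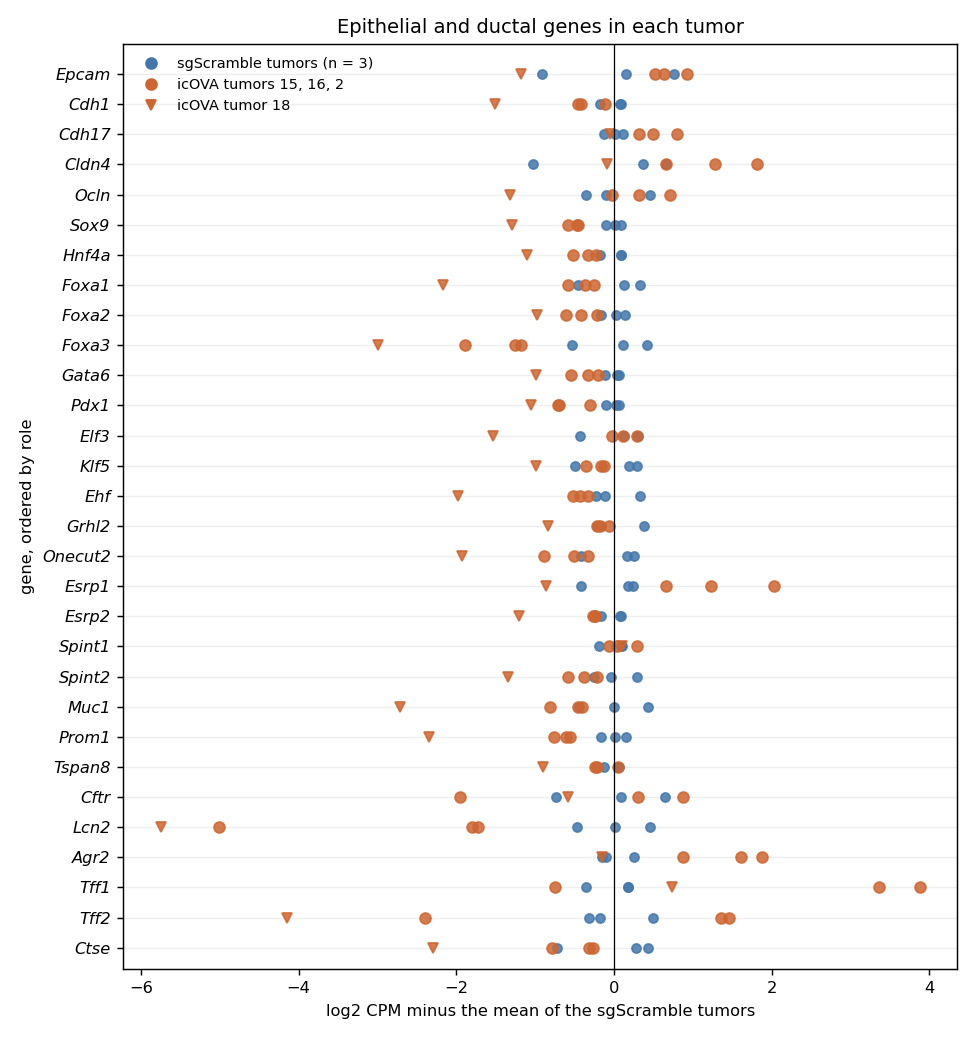
Log2 CPM of the 30 tested genes in each tumor minus the mean of the 3 sgScramble tumors, with genes ordered by role. The 4 icOVA tumors include tumor 18 (triangles), which is the lowest of the 7 tumors in 25 genes.

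The spread of the genes among icOVA tumors was wider than that of genes at large. The median coefficient of variation of CPM was 22.2% in sgScramble and 41.6% in icOVA tumors over the 30 genes, and 11.3% and 13.5% over all tested genes. Tumor 18 was the lowest of the 7 tumors in 25 of the 30 genes (83.3%), against 26.4% of all tested genes, and sgScramble tumor 5 was the highest in 14 (46.7%, against 20.2%). Without tumor 18 the median coefficient of variation in icOVA tumors was 14.0% for the 30 genes and 9.89% for all. The median log2 fold change then moved from -0.46 to -0.29, and 5 genes passed the threshold (Foxa3, Pdx1, Prom1 and Sox9 lower and Agr2 higher), where 6.44% of all tested genes did. Without icOVA tumor 16, Pdx1, Foxa3, Foxa2 and Tff1 passed (10.0% of all tested genes), and without sgScramble tumor 4 Foxa3 did (8.63%). With sgScramble tumor 1, with sgScramble tumor 5 or with icOVA tumor 15 left out, no gene of the table passed the threshold with edgeR, although 3087, 2936 and 3415 genes had an unadjusted p below 0.05.

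Tumor 18 also had the highest fibroblast markers, and the keratins Krt8, Krt18 and Krt19 were lowest there. The mean log2 CPM of these 3 keratins differed from the sgScramble mean by 0.20, 0.19, -0.52 and 0.079 in icOVA tumors 15, 16, 18 and 2. That of the 12 transcription factors differed by -0.56, -0.36, -1.49 and -0.40, and was therefore below the sgScramble mean in each of the 4 tumors. The mean of the keratins was below the sgScramble mean only in tumor 18, and by less. That of 10 fibroblast markers differed by 1.26, -0.45, 1.66 and 0.027. The part of fibroblast RNA in the levels of the 30 genes was not tested. That of 11 leukocyte markers was above the sgScramble mean in all 4 icOVA tumors, by 1.18, 0.49, 1.16 and 0.92. The part of leukocyte RNA in the levels of the 30 genes was not tested.

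**Figure D5:**
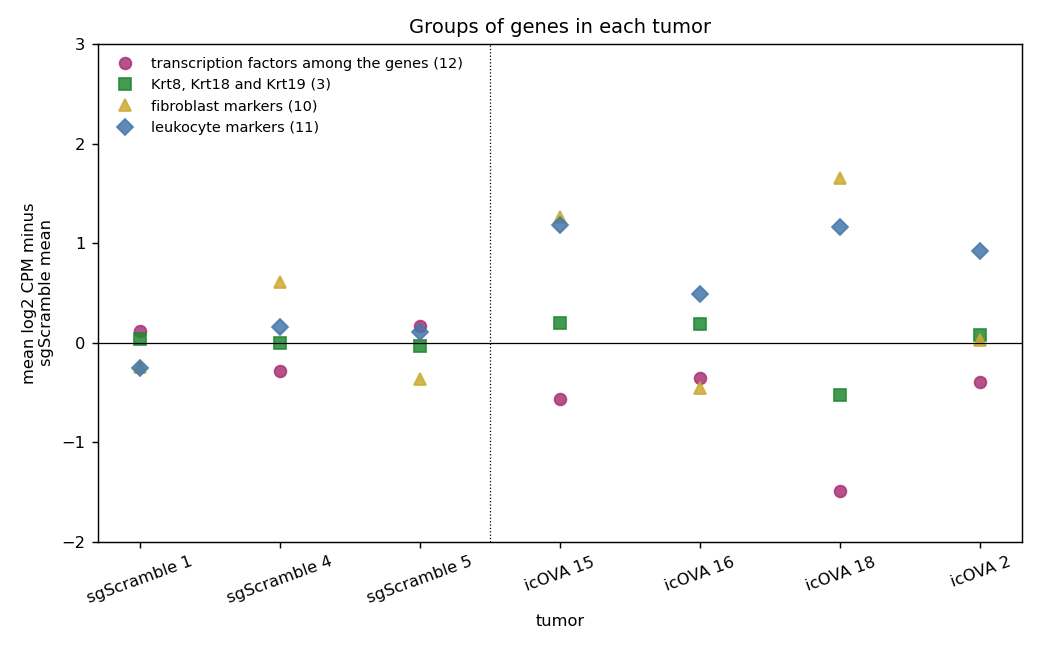
Mean log2 CPM of 4 groups of genes in each tumor minus the mean of the sgScramble tumors. The 12 transcription factors lie below 0 in every icOVA tumor, from -1.49 in tumor 18 to -0.36 in tumor 16, and the 3 keratins lie between -0.52 and 0.20.

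The genes were also set against the keratins within each tumor, with the 3 keratin RNAs as a rough stand-in for epithelial RNA. Relative to the mean log2 CPM of Krt8, Krt18 and Krt19, 16 of the 30 genes had every icOVA tumor below every sgScramble tumor (53.3%, against 5.94% of all tested genes), and 2, Cdh17 and Agr2, had every icOVA tumor above (6.67%, against 6.28%). Without this scaling the shares below were 33.3% of the 30 genes and 13.3% of all tested genes. The scaling thus moved these shares in opposite directions, and the contrast between them depends in part on it. The 16 were the 10 named above together with Cdh1, Grhl2, Onecut2, Spint2, Muc1 and Tspan8. With library sizes set so that the 3 keratins were level in all tumors, Foxa3 passed the threshold (log2 fold change -1.81, adjusted p = 0.0380) as did 1.01% of all tested genes, and Pdx1 did not (log2 fold change -0.67, adjusted p = 0.140).

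Genes of the same programme outside the 32 gave some calls. Of 27 other cell junction and polarity genes tested, 0 were higher and 4 were lower, with a median log2 fold change of -0.34. The 4 were the polarity genes Llgl2 (log2 fold change -1.08, adjusted p = 0.0284) and Pard3 (-0.67, adjusted p = 0.0393), the P-cadherin gene Cdh3 (-1.81, adjusted p = 0.0349) and Ctnnb1, which encodes beta-catenin (-0.47, adjusted p = 0.0472). Among the other epithelial programme genes, of which 25 were tested with a median of -0.47, Bicc1 was lower. It encodes an RNA-binding protein of ducts and renal tubules and had 215, 218 and 236 CPM in sgScramble tumors and 120.0, 139, 97.4 and 123 CPM in icOVA tumors (log2 fold change -0.89, adjusted p = 0.0230).

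Of 14 further classical pancreatic cancer genes tested, 1 was higher and 0 were lower, with a median log2 fold change of 0.88. It was Lyz1, the lysozyme of Paneth cells, with 2.99 to 4.80 CPM in sgScramble and 11.1 to 19.3 CPM in icOVA tumors (log2 fold change 2.07, adjusted p = 0.0230). Lyz1 has a near-identical paralog in Lyz2 of macrophages, which was itself higher (log2 fold change 0.91, adjusted p = 0.0277), and the counting could have split reads between them, so its value is uncertain. Of 16 basal-like genes, Ly6d and Lama3 were higher (log2 fold changes 1.56 and 2.32, adjusted p values 0.0271 and 0.0284) and Scel was lower (-1.27, adjusted p = 0.0284), with a median of 0.12. Of 16 genes of the mesenchymal transition, among them the abundant Fn1 and Vim, 0 passed in either direction (median 0.21).

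Most of the listed acinar, islet, skin and mammary genes had no row or too few counts for a test. Of 18 acinar genes 5 were tested, of 12 islet genes 2, of 20 skin genes 7 and of 10 mammary genes 4, and 0 of each passed in either direction. Of 11 hepatocyte genes 6 were tested and 2 were lower, Alb (log2 fold change -4.16, adjusted p = 0.0280) and Fga (-4.72, adjusted p = 0.0313), from levels of at most 3.89 CPM. The summed hepatocyte level was 73.6 to 145 CPM in sgScramble and 13.5 to 56.5 CPM in icOVA tumors, most of it Ttr and Apob (named after their values were seen), and so moved in the same direction as Foxa3 and Hnf4a. Whether these genes came from the same cells was not tested.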

How the data were processed

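RNA-seq of 7 s/c tumors was analysed, 3 sgScramble and 4 icOVA. The authors deposited raw counts per gene, whole numbers without normalization, in 22629 rows. The library kit is given as TruSeq Stranded Total RNA, used with modifications, and the genome build in the submitters' processing notes is mm10. The aligner, the counter, its use of strand and the annotation are not given in the sources used here. Total counts ran from 30904855 to 37510591. Symbols, coordinates and exon lengths came from GENCODE M21 on GRCm38, and 22414 of 22628 Ensembl identifiers had a symbol.

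Counts were tested with edgeR 4.0.16 in R 4.3.3 (filterByExpr with minimum count 10 and minimum total 15, TMM, quasi-likelihood test, Benjamini-Hochberg over 17489 genes, threshold 0.05). The SE is the size of the log2 fold change divided by the square root of F. Log2 CPM has a prior count of 2. The fit was tested on simulated data. Alternatives were DESeq2 1.42.0, limma-voom (limma 3.58.1), other scalings, filters, dispersions and prior counts, and leaving out each tumor.

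All 32 genes are named. From other lists, up to 4 genes are named, those past the threshold with the smallest adjusted p or otherwise those with the highest CPM. The genes and lists were chosen with earlier results of these data known. Tumors of other cell lines were not analysed here. A further result of the lists is not reported here.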

Additional observations from a re-analysis of the deposited data

Results flagged for a closer look

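In each of the 30 tested genes, the highest and the lowest of the 4 icOVA tumors were compared with the others by Dixon's ratio, the gap to the nearest tumor divided by the whole range of log2 CPM, at the 95% critical value. Chance flags about 1 in 20 groups, which comes to 1.5 of 30, and 4 genes passed. In all 4 the tumor apart was icOVA tumor 18, on the low side. The ratio was 0.963 for Esrp2, with 4.29 log2 CPM in tumor 18 and 5.23 to 5.26 in the others. It was 0.889 for Prom1, with 5.94 log2 CPM in tumor 18 and 7.54 to 7.74 in the others. For Ehf it was 0.882, with 4.90 against 6.37 to 6.56 log2 CPM, and for Sox9 it was 0.857, with 4.78 against 5.50 to 5.62 log2 CPM. The genes share their libraries, so the 4 flags are not independent of each other. The groups of 3 sgScramble tumors were too small for this comparison.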

How the results depend on the processing

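Of 268 values recomputed with all tumors kept, 253 kept their direction and their side of the threshold. Genes called higher and lower numbered 588 and 444, and became 1558 and 1278 with DESeq2 and 71 and 106 with the keratins level, which turned the majority from higher to lower calls. With a tumor left out they ran from 0 to 1014 and from 0 to 716. They were 0 without sgScramble tumors 1 or 5 and without icOVA tumor 15, and 6 and 2 without icOVA tumor 2. Of the 30 genes, 0 were called higher and 0 lower, and DESeq2 called 1 higher and 4 lower, limma-voom 3 lower, and upper quartile scaling, total count scaling, the minimum of 10 counts in every tumor and the level keratins 1 lower each. With a tumor left out, 0 to 1 were called higher and 0 to 4 lower. The median log2 fold change of the 30 stayed between -0.56 and -0.29 in these fits. With limma-voom the sign turned for Ocln (-0.068) and Tff2 (-1.08), and with the keratins level for Ocln (-0.029). With a tumor left out the sign turned in 11 of 210 values, and the log2 fold change ran from -0.069 to 0.70 for Epcam, from -0.22 to 0.33 for Ocln, from -0.35 to 0.10 for Elf3, from -0.59 to 0.28 for Cftr and from -0.15 to 0.84 for Tff2. The cause was not tested. Prior counts of 0.5 and 5 moved 0 of the 60 differences in log2 CPM by more than the SD between tumors. No paired analysis was possible because no tumor number occurs in both groups. Depth limits Cldn7, with at most 5 counts in a tumor.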

Other observations

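Further gastric mucous genes were looked at after their values were seen. Gkn2, a gastrokine of gastric surface mucous cells, had 2.62, 0.699 and 1.31 CPM in sgScramble tumors 1, 4 and 5 and 74.4, 1.86, 9.69 and 26.5 CPM in icOVA tumors 15, 16, 18 and 2 (log2 fold change 4.18, adjusted p = 0.0813 from edgeR). Its paralog Gkn1 had 7.08, 3.98 and 2.59 CPM against 43.6, 2.18, 7.22 and 21.1 CPM (log2 fold change 2.02, adjusted p = 0.201 from edgeR). In both, tumors 15 and 2 were the highest, as they were for Tff1, Tff2 and Agr2. Among the icOVA tumors alone, 15 and 2 were also the highest for Epcam and Ocln, but not for Cdh17. The order of the icOVA tumors is therefore not particular to gastric genes. Muc6, the mucin of gastric glands, had the opposite position, with 126, 99.5 and 33.1 CPM in sgScramble tumors and 14.3, 0.344, 0.000 and 9.33 CPM in icOVA tumors (log2 fold change -3.84, adjusted p = 0.0976 from edgeR). Among the icOVA tumors, 15 and 2 were again the highest. None of the 3 genes passed the threshold, and the pattern among tumors was not tested.

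Spp1, which encodes the secreted phosphoprotein osteopontin, was the most abundant of the other epithelial programme genes. It had 7562, 5607 and 7145 CPM in sgScramble tumors and 2644, 4784, 2146 and 3738 CPM in icOVA tumors, with no overlap (log2 fold change -1.02, adjusted p = 0.0656 from edgeR). Macrophages also express it, and the summed level of 10 macrophage markers was 2276 to 3080 CPM in sgScramble tumors and 3892 to 5269 CPM in icOVA tumors. The part of macrophage RNA in the level of Spp1 was not tested.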
